A study of Mus musculus with 8 samples.

Results

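Homeostatic microglia genes are transcripts linked to resident microglia, and many of them set these cells apart from most other macrophages. A list of 10 such genes was followed: Tmem119, Cx3cr1, Olfml3, Gpr34, Siglech, Fcrls, Slc2a5, Ltc4s2, Gpr84 and Adgre1. A gene was counted as measured when a probe set of the array is annotated to that symbol alone, and the brightest such probe set, by its mean over the 8 arrays, stood for the gene. By this rule 9 of the 10 were measured, on 10 probe sets, out of 18194 genes. Ltc4s2 matched no probe set and no entry of the reference annotation, and it was not replaced by another gene. The list also holds Gpr84, which is low in resting microglia, and Adgre1, which other macrophages make too. Neither the list nor the choice of probe sets used the difference between the genotypes, but the list was drawn up with earlier results of these data known.

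Each array held the hypothalamus RNA of a single mouse of 10 weeks, 4 of them wild type and 4 Nestin-Pex5-/-, on an Affymetrix whole-genome mouse array. Both genotypes were bred into the Swiss Webster background and received no treatment. In Nestin-Pex5-/- mice a Cre recombinase under the Nestin promoter removes floxed Pex5, the import receptor for proteins of the peroxisomal matrix, from neural progenitors and the neurons, astrocytes and oligodendrocytes that descend from them. Microglia come from another lineage and are not the target of this Cre. Values are log2 signals made with RMA, so a difference of 1 is a doubling of signal. Wild type arrays carry the numbers 1 to 4 and Nestin-Pex5-/- arrays the numbers 7 to 10, as in the labels.

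Microglia are the resident macrophages of brain tissue, seeded from the yolk sac and kept alive by signals through the receptor Csf1r. TGF-beta and the transcription factors Spi1 (PU.1), Irf8, Mef2 and Sall1 maintain the resting gene programme. In several models of neurodegeneration a part of this programme is reduced in activated microglia while lysosomal, lipid and complement genes rise.

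In the hypothalamus of Nestin-Pex5-/- mice 8 of the 9 measured homeostatic genes were higher than in wild type mice, at an adjusted p under 0.05 in limma, against 3.98% of all genes. The rises ran from 1.75-fold for the lectin-like receptor Siglech to 7.99-fold for Adgre1, which encodes a surface antigen used to stain macrophages and microglia. Cx3cr1, the receptor for fractalkine, and the secreted protein Olfml3 rose 3.28-fold and 3.34-fold, and Tmem119, a surface protein used to mark microglia, rose 2.14-fold. Slc2a5, the fructose transporter of microglia, did not rise. Its value was 0.777 times the wild type value with an adjusted p of 0.134 in limma. No member was lower at the adjusted threshold, against 0.791% of all genes. Before adjustment 1 member, Slc2a5, was lower with a p under 0.05 in limma, as were 1457 of all 18194 genes. Over the 9 members the median log2 fold change was 1.33, and over all 18194 genes it was -0.03. In bulk tissue a higher number of microglia and more RNA of a gene in each microglial cell cannot be told apart.

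Promoter sequences of 6 of the 9 measured members were found in the RefSeq promoter table of GRCm38.p6, as windows of the 250 bases before the start that this table gives for each gene. Genes can have several starts: 241 bases of the Fcrls window, 232 of the Gpr84 window and 30 of the Siglech window lie inside the gene's whole annotated span, and 0 of the Cx3cr1, Olfml3 and Slc2a5 windows. The search covered 4 letter patterns on both strands of these windows and of all 32851 windows of the same length. AGGAAGT, bound by PU.1, lay in 2 of the 6 members' windows (Fcrls and Gpr84) and in 7.69% of all windows. GGAANNGAA, a composite of PU.1 and IRF letters that shares GGAA with the first pattern, lay in 0 of the 6 and in 6.99% of all windows. CTANNNNTA, called the MEF2 pattern here, is looser than a MEF2 site because it allows any base in its middle. It lay in 2 of the 6 (Cx3cr1 and Gpr84) and in 19% of all windows. CAGACA, bound by SMAD proteins, lay in 3 of the 6 (Fcrls, Slc2a5 and Siglech) and in 17.1% of all windows. A match describes letters in these windows and is not a measured binding site.

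Shown here are 4 windows, 5′ to 3′ on the strand of the gene: 3 of members that rose and that of Slc2a5, the member that did not rise. Cx3cr1 is at chr9:120068297-120068546 (minus strand), Fcrls at chr3:87263525-87263774 (minus strand), Gpr84 at chr15:103310439-103310688 (minus strand) and Slc2a5 at chr4:150119094-150119343 (plus strand). Capitals mark the PU.1 and MEF2 patterns, and the SMAD pattern is left in lower case.
Cx3cr1: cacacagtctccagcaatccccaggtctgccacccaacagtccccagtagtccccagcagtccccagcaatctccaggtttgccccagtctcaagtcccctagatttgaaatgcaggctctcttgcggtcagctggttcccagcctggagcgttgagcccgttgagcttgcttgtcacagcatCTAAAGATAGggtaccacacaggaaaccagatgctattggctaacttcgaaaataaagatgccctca
Fcrls: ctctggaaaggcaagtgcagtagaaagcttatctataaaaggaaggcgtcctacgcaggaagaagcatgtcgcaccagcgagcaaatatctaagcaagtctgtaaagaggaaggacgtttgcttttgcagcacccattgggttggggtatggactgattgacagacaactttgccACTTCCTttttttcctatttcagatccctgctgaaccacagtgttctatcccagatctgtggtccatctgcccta
Gpr84: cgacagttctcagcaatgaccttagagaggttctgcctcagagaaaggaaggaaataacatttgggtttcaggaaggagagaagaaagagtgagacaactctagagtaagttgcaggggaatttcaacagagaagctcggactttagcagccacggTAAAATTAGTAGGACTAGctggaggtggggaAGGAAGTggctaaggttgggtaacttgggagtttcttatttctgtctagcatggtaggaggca
Slc2a5: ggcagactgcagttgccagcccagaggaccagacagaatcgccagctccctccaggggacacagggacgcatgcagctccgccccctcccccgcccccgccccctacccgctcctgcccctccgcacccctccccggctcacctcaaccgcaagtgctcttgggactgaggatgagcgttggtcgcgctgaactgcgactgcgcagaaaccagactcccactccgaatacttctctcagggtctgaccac
The PU.1 letters began 75 bases before the table's start in Fcrls, on the opposite strand, and 63 bases before it in Gpr84, in both inside the annotated span of the gene. The loose MEF2 pattern matched Cx3cr1 on both strands 1 base apart, from 67 bases before the start, with a G among the middle bases. Gpr84 had a pair of matches side by side, from 94 and 85 bases before the start. Of this pair the match from 85 bases held G and C in its middle. The Slc2a5 window held neither pattern, and neither did those of Olfml3 and Siglech, which rose. The GC content was 66.4% in Slc2a5, 57.6% in Olfml3, 53.6% in Cx3cr1, 50.8% in Siglech, 46.8% in Fcrls and 46.0% in Gpr84.

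**Figure D1:**
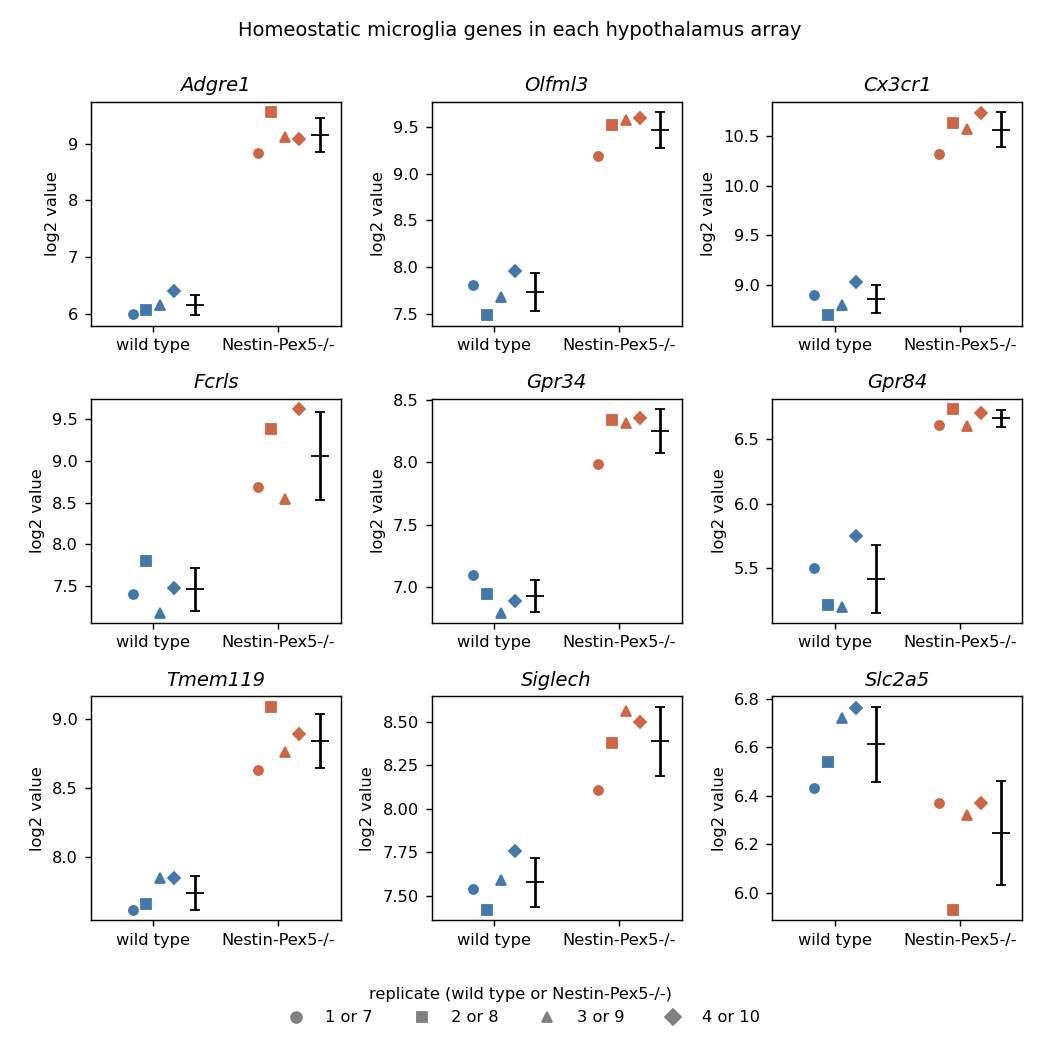
Log2 value of each measured homeostatic microglia gene (vertical axis, own scale in each panel) in the 4 wild type (blue) and 4 Nestin-Pex5-/- (orange) arrays, ordered by fold change. Symbols name the replicates, which are not paired, and the bar beside each group is the mean ± SD. In 8 panels every orange point lies above every blue point, and in Slc2a5 every orange point lies below.

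Cx3cr1, which binds the neuronal chemokine fractalkine, had log2 values of 8.90, 8.69, 8.80 and 9.03 in wild type arrays 1 to 4 and of 10.32, 10.64, 10.57 and 10.74 in Nestin-Pex5-/- arrays 7 to 10. The genotypes were separated by a gap of 1.30, several times the spread inside either group, with array 7 the lowest and array 10 the highest of its group. The log2 fold change was 1.71 with an SE of 0.1, and the adjusted p in limma was 6.7e-06. Cx3cr1 is the only member with a further probe set of its own. That probe set read 7.91, 7.88, 7.96 and 8.24 in wild type and 9.55, 10.01, 9.75 and 9.89 in Nestin-Pex5-/- arrays. It rose by 1.80 on the log2 scale, with an adjusted p of 3.3e-05 in limma over all probe sets, of which 2.32% were called higher.

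Gpr34, a receptor for lysophosphatidylserine, had log2 values of 7.09, 6.94, 6.79 and 6.88 in wild type and of 7.99, 8.34, 8.32 and 8.36 in Nestin-Pex5-/- arrays. Arrays 8, 9 and 10 were nearly level and array 7 stood below them, yet the groups remained 0.91 apart. Gpr34 rose by 1.33 on the log2 scale with an SE of 0.097, and the adjusted p in limma was 2.8e-05. Gpr34 lies on the X chromosome. Genes of the Y chromosome were read in all 8 arrays, while Xist stayed between 5.99 and 6.85. Xist, Eif2s3y and Uty did not separate the genotypes. The Y chromosome gene Kdm5d did, with 7.67 to 7.86 in wild type and 7.94 to 7.97 in Nestin-Pex5-/- arrays, but its adjusted p was 0.128 in limma.

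Gpr84 binds medium-chain fatty acids and is known to be induced by inflammatory stimuli. It had log2 values of 5.50, 5.22, 5.20 and 5.75 in wild type and of 6.61, 6.73, 6.60 and 6.70 in Nestin-Pex5-/- arrays. The Nestin-Pex5-/- arrays lay closer to each other than those of any other member, with an SD of 0.061 against 0.26 in wild type, and the groups were 0.85 apart. The log2 fold change was 1.24 with an SE of 0.12, and the adjusted p in limma was 1.8e-04. Gpr84 and Slc2a5 had means over all arrays under the median of all probe sets, 6.79, and in wild type alone Adgre1 lay under it too. The share of background in such dim values is unknown.

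The lectin-like and Fc receptor-like members differed in how evenly they rose. Siglech, a lectin-like receptor that signals through Tyrobp (DAP12), had log2 values of 7.54, 7.42, 7.59 and 7.76 in wild type and of 8.11, 8.38, 8.56 and 8.50 in Nestin-Pex5-/- arrays. Array 7 was again the lowest of its group, and the gap between the genotypes, 0.36, was the narrowest of the 8 members that rose. Siglech rose by 0.81 on the log2 scale with an SE of 0.11, and the adjusted p in limma was 0.00162. Fcrls, an Fc receptor-like scavenger protein, had log2 values of 7.40, 7.80, 7.18 and 7.47 in wild type and of 8.69, 9.38, 8.54 and 9.62 in Nestin-Pex5-/- arrays. Arrays 8 and 10 lay clearly above arrays 7 and 9, and the groups were 0.74 apart. The Nestin-Pex5-/- SD of 0.52 was the highest of any member. The log2 fold change was 1.60 with an SE of 0.24, and the adjusted p in limma was 0.00351, or 0.0504 when each gene was fitted without limma's shared spread.

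Adgre1 encodes an adhesion receptor of microglia that macrophages outside the brain carry as well. It had log2 values of 5.99, 6.06, 6.16 and 6.41 in wild type and of 8.84, 9.56, 9.12 and 9.09 in Nestin-Pex5-/- arrays. The groups were 2.43 apart, the widest gap of the 9 members, and array 8 was the highest. Adgre1 rose 7.99-fold (95% interval 6.35-fold to 10.1-fold), with an adjusted p of 2.2e-06 in limma, and ranked 11 of all 18194 genes by log2 fold change. Its wild type mean of 6.16 lies among the dim values, so the fold also carries the unknown background of those arrays. Its single probe set is of a type that reads several transcripts of 1 gene.

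Tmem119 had log2 values of 7.62, 7.66, 7.85 and 7.85 in wild type and of 8.63, 9.09, 8.76 and 8.89 in Nestin-Pex5-/- arrays. Array 8 was the highest and array 7 the lowest, and the groups were 0.77 apart. Tmem119 rose by 1.10 on the log2 scale with an SE of 0.1, and the adjusted p in limma was 1.8e-04. Olfml3, an olfactomedin-like protein of the extracellular matrix, had log2 values of 7.81, 7.48, 7.68 and 7.96 in wild type and of 9.19, 9.52, 9.58 and 9.60 in Nestin-Pex5-/- arrays. Arrays 8, 9 and 10 were level and array 7 lower, and the groups were 1.23 apart. Olfml3 rose by 1.74 on the log2 scale with an SE of 0.12, and the adjusted p in limma was 2.0e-05.

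Slc2a5 was the exception. It encodes GLUT5, a fructose transporter that in brain tissue is largely a microglial product. It had log2 values of 6.43, 6.54, 6.72 and 6.76 in wild type and of 6.37, 5.93, 6.32 and 6.37 in Nestin-Pex5-/- arrays. Every Nestin-Pex5-/- array lay below every wild type array, but by a gap of only 0.05, and array 8 stood under the rest. The log2 fold change was -0.36, with a 95% interval from -0.62 to -0.10, and the adjusted p in limma was 0.134. Between genotypes 4.51% of all genes were separated in this way with Nestin-Pex5-/- arrays below, and 6.63% with Nestin-Pex5-/- arrays above, as the other 8 members were. The exact two-sided permutation test over the arrays gave 0.0286 for each of the 9 members, which is the smallest p that 4 arrays against 4 allow. Scaled to Actb, which itself read 0.13 higher in Nestin-Pex5-/- arrays, the log2 fold change of Slc2a5 was -0.49 and passed the threshold with an adjusted p of 0.0374 in limma. That scaling moved the median of all genes from -0.03 to -0.16, and relative to the median Slc2a5 lay at -0.33 both with and without it.

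Within the Nestin-Pex5-/- group the same arrays were often lowest or highest among the members that rose. This order was not tested and was not compared with that of all genes. The mean of the pan microglia and macrophage list, described below, was also lowest in array 7, at 10.17. Array 7 was the lowest of its group in 6 of the 8, array 10 the highest in 4, array 8 in 3 and array 9 in 1. Within wild type, array 4 was the highest in 6 of the 8. These arrays also stood apart in genes of adjoining tissue. The mean log2 value over 9 genes of the meninges was 7.13 in array 7 and 7.37 in array 8, against 8.40 and 8.38 in arrays 9 and 10 and 7.99 to 8.52 in wild type. The mean over 8 genes of the choroid plexus was 6.94 in wild type array 4, while the rest of wild type had 8.51 to 8.90 and Nestin-Pex5-/- arrays 7.83 to 8.51. The part of these differences in tissue in the members' values was not tested beyond leaving the arrays out. Without arrays 7 and 8 together, and without any single array, 8 members were higher and 0 lower in limma.

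**Figure D2:**
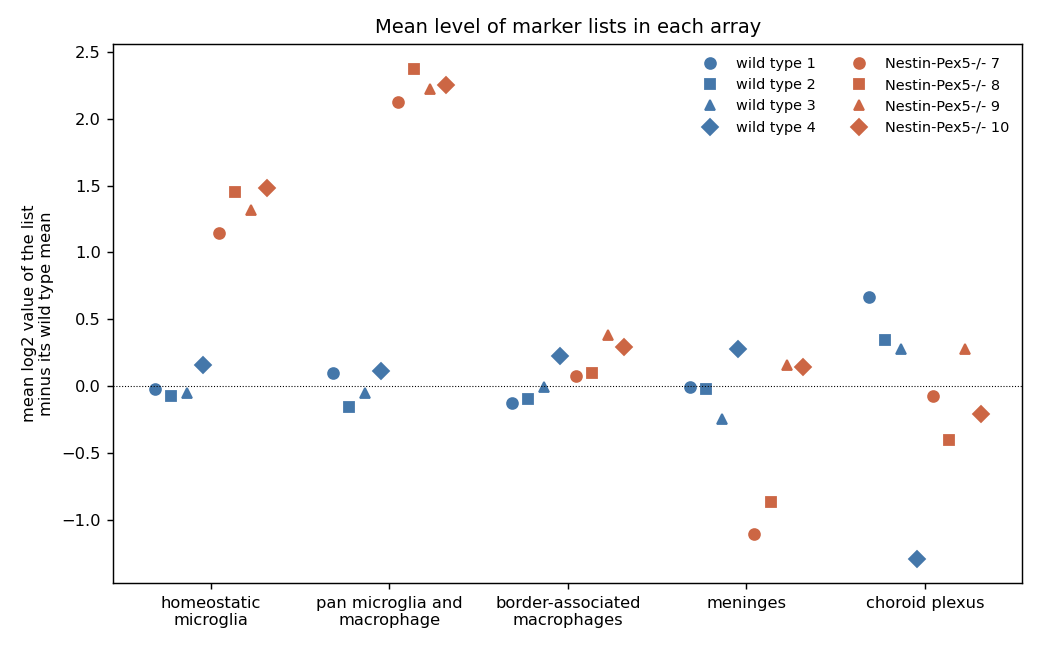
Mean log2 value of each list in each array, minus the mean of the wild type arrays (vertical axis), for the 9 homeostatic microglia genes and 4 marker lists. Blue symbols are wild type and orange symbols Nestin-Pex5-/- arrays. The homeostatic and pan microglia lists separate the genotypes, whereas meningeal genes are low in Nestin-Pex5-/- arrays 7 and 8 and choroid plexus genes in wild type array 4.

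Genes that microglia share with other macrophages and leukocytes rose as well, with a higher median than the homeostatic members. All 19 measured genes of a pan microglia and macrophage list were higher in limma, against 3.98% of all genes, with a median log2 fold change of 2.23. Their mean value was 7.89 to 8.16 in wild type and 10.17 to 10.42 in Nestin-Pex5-/- arrays. Among them the complement genes C1qa, C1qb and C1qc rose by 2.93, 3.23 and 3.22 on the log2 scale. Markers of border-associated macrophages, which sit in the meninges and around vessels, were also read, though all 12 had means over all arrays under the median of all probe sets, 6.79, where the share of background is unknown. Of these only Ms4a7 was higher (log2 fold change 1.63, adjusted p 0.00905 in limma), against 3.98% of all genes, and none passed without moderation. The list's mean value was 5.97 to 6.32 in wild type and 6.17 to 6.48 in Nestin-Pex5-/- arrays. Genes that define this type had log2 fold changes of 0.15 (Mrc1), -0.02 (Lyve1) and 0.27 (Cd163), none of which passed. Mrc1 read 6.10 and 6.31 in arrays 7 and 8, low in meningeal genes, and 6.94 and 6.83 in arrays 9 and 10. Its highest wild type value was 6.56. Cd163 split likewise, at 5.33 and 5.57 against 6.03 and 5.92, with at most 5.67 in wild type, and Lyve1 did not. Ms4a7, the gene that passed, split the other way, at 8.26 and 7.83 in arrays 7 and 8 against 6.96 and 6.92 in arrays 9 and 10. Its highest wild type value was 6.21. The part of the tissue difference in this was not tested. None of 13 monocyte and neutrophil genes and none of 12 lymphocyte genes passed in limma. At an unadjusted p under 0.05, 2 were lower in the former and 1 was higher in the latter. Of all 18194 genes 1457 were lower and 1611 higher at that level. The means of the monocyte and neutrophil list were 5.21 to 5.56 in wild type and 5.21 to 5.35 in Nestin-Pex5-/- arrays, and 11 of its 13 genes and 10 of the 12 lymphocyte genes had means over all arrays among the dim values, where the share of background is unknown.

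**Figure D3:**
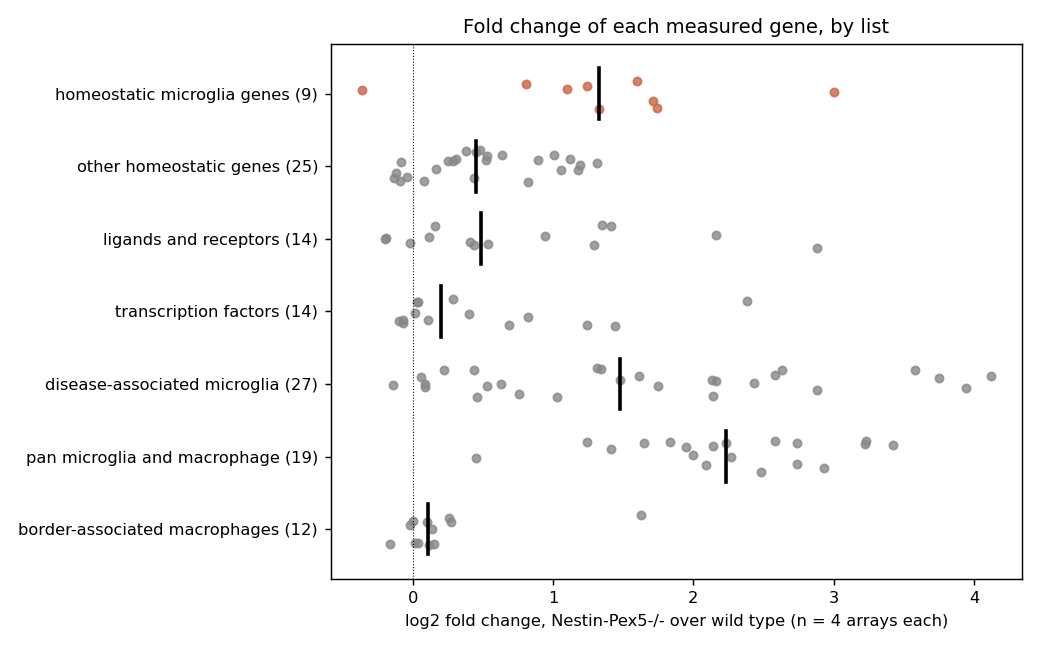
Log2 fold change (horizontal axis, Nestin-Pex5-/- over wild type, 4 arrays each) of every measured gene of 7 lists, with the number measured in brackets and a black line at the median. Lists share some genes, and vertical scatter within a list has no meaning. The homeostatic microglia genes (orange, median 1.33) lie between the other homeostatic genes (median 0.45) and the pan microglia and macrophage genes (median 2.23), with Slc2a5 alone below 0.

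Of a wider set of 25 measured homeostatic genes 14 were higher and 0 lower in limma, against 3.98% and 0.791% of all genes. Their median log2 fold change was 0.45, with a range from -0.13 to 1.31. The largest rises were those of the integrin subunit Itgb5 (1.31), the lysophospholipid acyltransferase Lpcat2 (1.19), the prostaglandin D synthase Hpgds (1.18) and the ribonuclease Rnase4 (1.12). Dimmer probe sets gave 0.93 for Lpcat2 and 1.17 to 1.35 for Itgb5. The wild type mean of Hpgds, 6.27, lies among the dim values. P2ry12, the ADP receptor that guides microglial processes, read 8.95, 8.80, 8.85 and 8.84 in wild type and 8.96, 9.34, 9.45 and 9.52 in Nestin-Pex5-/- arrays. Array 7 lay barely above wild type array 1, and the other Nestin-Pex5-/- arrays lay well above all of wild type. Its log2 fold change was 0.45, with an adjusted p of 0.0554 in limma. Sall1, a transcription factor of microglial identity, rose by 0.82 with an adjusted p of 0.00123 in limma, and a dimmer probe set of it gave 0.37. The leukotriene C4 synthase gene Ltc4s, whose name is close to the unmatched Ltc4s2, had a log2 fold change of 0.08 and an adjusted p of 0.788, and it is not taken as that member. Of genes of disease-associated microglia, which microglia make near damaged tissue, 21 of 27 measured were higher and 0 lower, against 3.98% and 0.791% of all genes. Their median log2 fold change was 1.48. These genes were led by Cd52 (4.12), Clec7a (3.94), Cst7 (3.75) and Ccl6 (3.58). The wild type means of these leaders, 6.39, 5.41, 4.85 and 5.83, lie under the median of all probe sets, 6.79. Their folds therefore carry an unknown share of background, and a dimmer probe set of Ccl6 gave 2.17.

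Among ligands and receptors that maintain microglia, 8 of 14 were higher and 0 lower in limma, against 3.98% and 0.791% of all genes. Their median log2 fold change was 0.49. The receptor Csf1r rose by 1.41, and its ligand Csf1 by 0.44 with an adjusted p of 0.0254 in limma. Dimmer probe sets of Csf1 gave 0.52, 0.44 and 0.18, of which only that with 0.52 passed in limma over all probe sets. The other ligand of Csf1r, Il34, had a log2 fold change of -0.20 and an adjusted p of 0.33. The fractalkine gene Cx3cl1, the neuronal ligand of Cx3cr1, had log2 values of 11.21, 11.25, 11.40 and 11.27 in wild type and of 11.04, 11.12, 11.15 and 11.06 in Nestin-Pex5-/- arrays. Every Nestin-Pex5-/- array was below every wild type array, but the log2 fold change was only -0.19, with an adjusted p of 0.135. Tgfb1 rose by 1.35 and its receptor Tgfbr1 by 1.29, although a dimmer probe set of Tgfb1 gave -0.01. The wild type mean of Tgfb1, 6.35, lies among the dim values. The signalling partners Tyrobp, the adaptor used by Siglech, and Trem2 rose by 2.88 and 2.16, where a dimmer probe set of Trem2 gave -0.08.

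Of 14 transcription factors of microglia 5 were higher and 0 lower in limma, against 3.98% and 0.791% of all genes. Their median log2 fold change was 0.20. The myeloid factors Irf8, Cebpa and Spi1 rose by 2.38, 1.44 and 1.24, with Sall1 and Cebpb (0.40) making up the 5. A dimmer probe set of Irf8 gave 1.75. The wild type means of Irf8 and Spi1, 6.09 and 6.30, lie among the dim values, where the share of background is unknown. Mef2a (0.11) and Mef2c (0.29) did not pass the test, and neither did the SMAD genes Smad2 (0.02), Smad3 (0.04) and Smad4 (-0.07). Pex5 itself had a log2 fold change of 0.01 and an adjusted p of 0.946. Its probe sets have not been placed against the deleted part, so this does not check the genotype.

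Whether the members rose by as much as a gene of the same cells was examined by subtracting, in each array, the log2 value of Csf1r. Csf1r read 11.36, 11.14, 11.30 and 11.29 in wild type and 12.47, 12.77, 12.71 and 12.80 in Nestin-Pex5-/- arrays. Relative to it 3 members were higher, 3 were lower and 3 did not pass in limma. Of all genes 0.456% were higher and 98.9% lower, since most genes did not rise with Csf1r. Adgre1 exceeded it by 1.59 (95% interval 1.22 to 1.96), Olfml3 by 0.33 (0.13 to 0.52) and Cx3cr1 by 0.30 (0.16 to 0.44). Tmem119 lagged, at -0.32 (-0.54 to -0.09), as did Siglech at -0.60 (-0.79 to -0.41) and Slc2a5 at -1.78 (-2.21 to -1.34). Gpr34 (-0.08, from -0.26 to 0.09), Gpr84 (-0.17, from -0.50 to 0.16) and Fcrls (0.18, from -0.49 to 0.86) did not pass, and the interval of Fcrls was the widest. All genes carry the same Csf1r values, which makes limma's shared spread mostly that of Csf1r, so these intervals come from each gene's own fit, chosen after seeing the data. Without wild type array 3 or without Nestin-Pex5-/- array 9, Cx3cr1, Olfml3 and Tmem119 no longer passed in limma, with 0.27, 0.30 and -0.29 in the first case and 0.31, 0.30 and -0.28 in the second. Without wild type array 4 Tmem119 (-0.28), without array 10 Cx3cr1 (0.28) and without wild type array 2 Olfml3 (0.29) did not pass. Fcrls passed without wild type array 2 (0.34) and without array 9 (0.37). These fits with an array left out used limma's shared spread and were not repeated with each gene's own fit. The exact permutation p was 0.0286 for Cx3cr1, Olfml3, Siglech, Slc2a5 and Adgre1 and 0.0571 for Tmem119, whose groups overlapped.

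The reference gene decided much of this picture. Aif1, which encodes the microglial protein Iba1, rose by 2.23 on the log2 scale, from 7.23 to 7.60 in wild type to 9.48 to 9.90 in Nestin-Pex5-/- arrays. Relative to it 1 member was higher and 8 were lower in limma, against 0.154% and 99.6% of all genes. Ptprc, the leukocyte antigen CD45, rose by 3.42, from 6.07 to 6.58 to 9.51 to 9.89. The wild type mean of Ptprc, 6.30, lies among the dim values, so its rise carries an unknown share of background. Relative to Ptprc 0 members were higher and 9 lower, against 0.0165% and 100% of all genes, the last being 18186 of 18193. In each gene's own fit 7 were lower than Aif1, without Fcrls (-0.63, from -1.32 to 0.06), and 8 lower than Ptprc. Cx3cr1 and Olfml3, ahead of Csf1r, read -0.51 and -0.49 against Aif1 and -1.70 and -1.68 against Ptprc. Adgre1 was ahead of Aif1 by 0.77 and read -0.42 against Ptprc, where its own fit gave an interval from -0.85 to 0.01 and the groups overlapped. Tmem119, Siglech and Slc2a5 were lower against each of the 3 reference genes, but against another probe set of Csf1r Tmem119 read -0.16 (adjusted p 0.256 in limma) and did not pass. A ratio within an array shows unequal change of a pair of genes and does not say which of them changed.

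**Figure D4:**
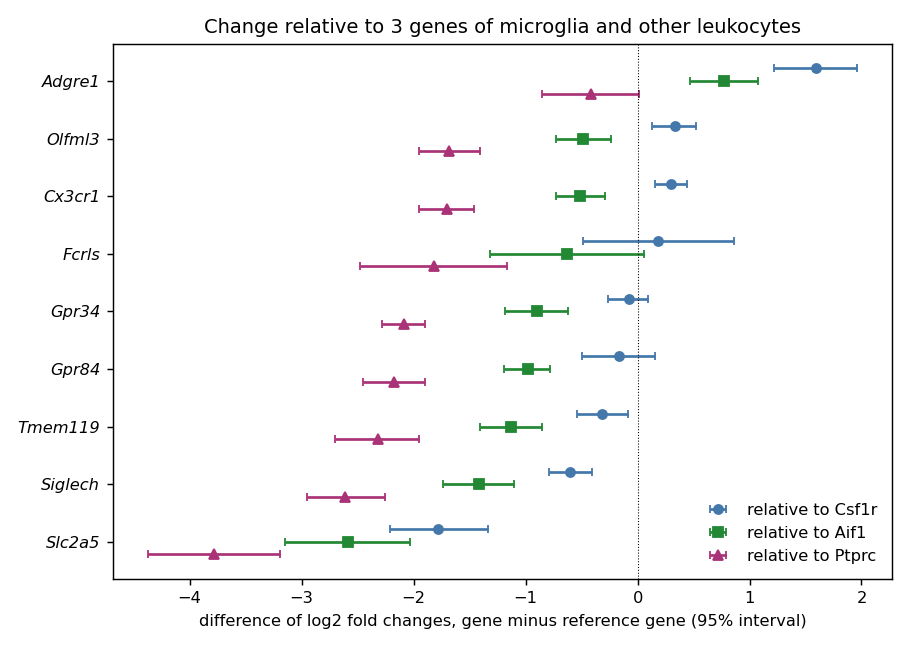
Difference of log2 fold changes, member minus reference gene (horizontal axis), for Csf1r, Aif1 and Ptprc as reference, with 95% intervals from each gene's own fit to 4 arrays a genotype. The order of the members is the same for each reference by construction. The whole intervals of Siglech, Tmem119 and Slc2a5 lie below 0 against all 3, and those of Cx3cr1 and Olfml3 lie above 0 only against Csf1r. Gpr34 and Gpr84 also have values below 0 against all 3, but their intervals against Csf1r include 0. Fcrls has a value above 0 only against Csf1r, with an interval that includes 0. Adgre1 is highest throughout.

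The genes whose values ran most like those of Tmem119 over the 8 arrays were Arhgdib (Pearson's r 0.995), Serp1 (0.994), Hexa (0.993), Ebi3 and Adgre1 (both 0.991). Once each genotype's mean was removed, r was 0.92 for Arhgdib and for Adgre1. Most like Cx3cr1 were Grn, Olfml3, Irf8 and Arhgap30 (all 0.998) and Nlrc5 (0.997), with r of 0.95 for Grn and Olfml3 after removal of the genotype means. The difference between the genotypes carries most of these values, the 8 arrays share their normalization, and the genes were picked as the highest of all, so the values describe these arrays only. Slc2a5 ran opposite to both, with r of -0.765 to Tmem119 and -0.740 to Cx3cr1, but within the genotypes it was only weakly related to them, at -0.26 and -0.04.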

How the data were processed

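Hypothalamus RNA of 4 wild type and 4 Nestin-Pex5-/- mice was measured on 8 arrays, all of which were used. The authors deposited log2 values made with RMA, which corrects background, quantile-normalizes the arrays and summarises probes into probe sets. Which software and probe set definition were used, and whether values were filtered, is not given in the sources used here. Sorted values differed from the mean distribution by at most 0.12, values ran from 2.91 to 15.03, and the array medians from 6.70 to 6.84. All columns were mapped to samples by title, and 0 were left unmapped.

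By the platform annotation 34958 probe sets belong to 1 gene, 932 to several and 9211 to none. Probe sets with 1 gene were kept, and for 34754 the symbol was taken from GRCm38.p6 by gene identifier, whether or not it differed. Each of the 18194 genes was read from its brightest probe set. The fit used limma 3.58.1 under R 4.3.3, with lmFit for genotype alone, eBayes and two-sided p-values, Benjamini-Hochberg adjustment over all genes and a threshold of 0.05, after a test on simulated data. An exact permutation test ran over the 70 assignments of the arrays. Precision is limited by the number of arrays. The labels call the mice biological replicates.

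The members and all lists were chosen with earlier results of these data known. Named genes were all members, up to 4 of each comparison list with the largest change past the threshold, a set of microglial regulators, and the 5 genes most like Tmem119 and Cx3cr1. Other genes were named after their values were seen. Of 26 other homeostatic genes, 15 transcription factors, 29 disease-associated, 20 pan microglia, 16 monocyte and neutrophil and 14 lymphocyte genes some had no probe set of their own. Lists of astrocytes, oligodendrocytes, neurons, endothelium, hypothalamus, red blood cells, sex-linked and reference genes were read as checks. Alternatives were another normalization, scaling, filters, probe set rules, array weights, other limma settings, a threshold of 0.01, other reference genes and leaving out arrays. Promoters came from RefSeq. Figures were drawn with matplotlib 3.10.9.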

Additional observations from a re-analysis of the deposited data

Results flagged for a closer look

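Of the 18 groups of 4 arrays formed by 9 members and 2 genotypes, 2 held an array far from the other 3, where chance gives about 1 group in 20. Gpr34 read 7.99 in Nestin-Pex5-/- array 7, below the other arrays of its group. Without array 7 its log2 fold change over wild type stayed past the threshold in limma. Slc2a5 read 5.93 in Nestin-Pex5-/- array 8, below the rest of its group, and without array 8 its log2 fold change was -0.26.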

How the results depend on the processing

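No paired analysis was possible because the genotypes share no replicate number. The deposited values were already background-corrected and no scan or slide information was used, so neither could be varied. In up to 19 settings beside the one reported, each of the 8 members that rose kept its direction where it was tested, and Fcrls without moderation (adjusted p 0.0504) was the single call lost. Gpr84 was not tested once dim genes were left out, nor Adgre1 without probe sets of its type. Dim genes were left out by their mean over all arrays. Adgre1, with a wild type mean of 6.16 under the cutoff of 6.79, was kept only through its Nestin-Pex5-/- values, so that setting does not check it. Scaling to Actb made 1 member lower (Slc2a5, -0.49) and 1 ligand or receptor lower (Cx3cl1). Leaving out arrays 7 and 8 together was chosen after seeing the data. Of all genes 724 were higher and 144 lower. These counts were 540 and 1088 when scaled to Actb, 600 and 409 when scaled to the reference genes, 1351 and 699 with array weights, 488 and 72 without moderation, and 543 to 1080 and 46 to 331 when 1 array was left out, the highest without wild type array 4.

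Relative to Csf1r, the counts of 3 higher and 3 lower depended on the reference gene. With Aif1 they were 1 and 8, or 1 and 7 without moderation, and with Ptprc 0 and 9, or 0 and 8. With the mean of the pan microglia genes, added after seeing the data as were the fits without moderation and the other Csf1r probe sets, they were 1 and 8. At a threshold of 0.01, 1 member was higher. Leaving out 1 array at a time left 1 to 3 higher and 2 to 3 lower, and without wild type array 3 it was 1 higher and 2 lower. Directions turned with Aif1 for Cx3cr1 (-0.51), Olfml3 (-0.49) and Fcrls (-0.63), with Ptprc for Cx3cr1 (-1.70), Olfml3 (-1.68), Fcrls (-1.82) and Adgre1 (-0.42), and with the pan microglia mean for Cx3cr1 (-0.53), Olfml3 (-0.50) and Fcrls (-0.65). Gpr34 turned to 0.01 with array weights and to 0.07 with another Csf1r probe set, neither past the threshold. The 2 other Csf1r probe sets gave 3 higher and 4 lower, where Gpr84 passed (-0.26, adjusted p 0.0351), and 3 higher and 2 lower, where Tmem119 did not (-0.16, adjusted p 0.256). Tmem119 (-0.28 to -0.39), Cx3cr1 (0.27 to 0.35) and Olfml3 (0.29 to 0.40) each lost the call in limma without some single arrays. The cause of these dependences was not tested.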

Other observations

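Genes of other brain cells gave a mixed picture beside the homeostatic microglia genes. Over all 18194 genes 3.98% were higher and 0.791% lower in limma. At an unadjusted p under 0.05, 1611 of them were higher and 1457 lower. Of 9 astrocyte genes 2 were higher in limma, of 10 neuronal genes 1 was lower, and of 8 oligodendrocyte genes and 7 endothelial genes 0 passed, with 6 and 0 higher at an unadjusted p under 0.05. Of 13 hypothalamic genes 1 was lower. Of 3 red blood cell genes 0 passed in either direction, also at an unadjusted p under 0.05. Of 4 sex-linked genes 0 passed, and 1 was higher unadjusted. Of 7 reference genes 1 was higher.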
